A study of Mus musculus with 21 samples.

Results

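Lung fibroblasts sorted from mice at postnatal day 7 (P7) were compared with lung fibroblasts sorted at postnatal day 28 (P28), across all genes of the deposited tables. The comparison rests on 4 of the 21 libraries of the series, 2 at P7 and 2 at P28, and all differences are P28 minus P7. The animals were C57BL/6 mice carrying a Col1a2-GFP transgene, in which regulatory sequence of the collagen gene Col1a2 drives green fluorescent protein, so the sort keeps cells in which that transgene is active and not every lung mesenchymal cell. Lungs were digested with collagenase, Dispase II and DNase I, and live cells were sorted as GFP positive, Epcam negative and negative for the lineage markers CD31, CD45, Ter119 and CD146. Genotype, strain and gate were the same at both ages, and the labels give neither the sex of the animals, the time of day of collection nor whether the 2 libraries of an age came from separate animals or pools. The p-values therefore measure the spread between these libraries, which may be technical. Other ages of the same sort entered only the estimate of that spread and the filter on low values that set which genes were tested.

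The lung of the newborn mouse gains most of its gas-exchange surface after birth, when septa grow out from the walls of the early air sacs and divide them into alveoli. Fibroblasts drive much of this: myofibroblasts at the septal tips lay down elastin and contract, lipid-storing fibroblasts supply retinoids and growth factors to the epithelium, and fibroblasts of the sheaths around vessels and bronchi build collagen bundles. P7 falls within septation, when the mesenchyme still divides, and by P28 the bulk of septation is over and the lung is a mature tissue. The comparison asks how the fibroblast transcriptome differs between those 2 states.

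RNA was measured by 3'SAGE-seq, which reads each polyadenylated transcript through a single short tag from its 3' region, and the deposited value is a normalised tag signal per gene, called a value unit here. In each library 100% of values were whole multiples of the worth of 1 read, within 0.01 of a read, and the recovered depth was 2146071 to 3808790 reads in the 4 libraries, with 15434 to 16447 genes above 0 and 16.8 to 17.4% of reads in the 10 most abundant genes. A listed value of 0 allows up to 3 reads, or 0.788 to 1.25 value units in these libraries, by counting error only, since amplified reads carry no molecular identifiers. Libraries of the same age differed by more than sampling noise, with a chi-square per degree of freedom of 9.05 at P7 and 10.1 at P28, and were used as separate samples. Values are given below as replicate 1 and replicate 2 of each age. Each transcript gives 1 tag whatever its length, but how well a tag is captured depends on its place, so levels of different genes are only roughly comparable. Such levels were set side by side to pick the 10 highest values of each age, in sums over lists and in cut-offs on the value.

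The libraries carried the fibroblast genes that the sort selects for. Of the gated-out types, Epcam and Pecam1 had few reads, while leukocyte and erythroid markers were higher at P28. Col1a2, the gene behind the transgene, stood at 2809 and 2768 at P7 and 3317 and 3120.2 at P28 and did not pass the test (log2 difference 0.21, SE 0.17, adjusted p = 0.453). Of 11 fibroblast markers, all of them tested, 6 rose and 1 fell, or 3 rose without P7 replicate 2, with a summed level of 29405 and 23811 at P7 and 45764 and 44647 at P28. Epcam had at most 1 read in any of the 4 libraries, and Pecam1, which encodes CD31, had 0 reads in both P7 libraries and 3 and 5 in the P28 libraries. Mcam, which encodes CD146, was low (1.58 and 0.835 at P7 and 0 and 2.39 at P28) and did not pass. Ptprc, which encodes CD45, had 0 reads at P7 and 6 and 18 at P28, and the summed level of the 14 leukocyte markers in the tables was 9.45 and 4.59 at P7 and 67.03 and 154 at P28, with 3 of 7 tested members higher at P28 and S100a8 and S100a9 at 0 in all 4 libraries. Erythroid markers, mostly haemoglobin genes whose tags can be shared between near-identical copies, summed to 167 and 353 at P7 and 1148 and 5293 at P28, with 6 of 8 tested members higher. P28 replicate 2 was the highest of the 4 libraries in both sums, and it also held 17.5 value units of the cartilage collagen Col2a1, which was at 0 in both P7 libraries and at 0.591 in P28 replicate 1. Markers of epithelium summed to 87.7 and 62.2 at P7 and 17.1 and 46.7 at P28, of endothelium to 27.05 and 30.9 at P7 and 31.6 and 41.1 at P28, of pericytes and vascular smooth muscle to 38.6 and 37.2 at P7 and 136 and 124 at P28 and of mesothelium to 710.3 and 532 at P7 and 607 and 627 at P28. Of these lists, 1 of 5 tested epithelial members was lower, 1 of 4 endothelial members higher, 3 of 9 pericyte members higher and 1 lower, and 0 of 8 mesothelial members passed in either direction. The endothelial call was lost without P7 replicate 2 or either P28 library and with edgeR. The epithelial call was lost without P7 replicate 1 or P28 replicate 2, and the fall of the pericyte member without any 1 of the 4 libraries. Each of these calls was also lost with no filter on low values. Xist, the RNA made from the inactive X chromosome of female cells, stood at 411 and 785 at P7 and 12.4 and 552 at P28, so P28 replicate 1 lay far below the other 3 libraries. By the gene test Xist was lower at P28, but not by edgeR, nor without P28 replicate 1 or either P7 library.

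Of 11954 genes tested, 2491 differed between P7 and P28, which is 20.8%. Higher at P28 were 1356 genes (11.3%) and lower were 1135 (9.49%), by limma on log2(value + 1) with Benjamini-Hochberg adjusted p under 0.05, and an adjusted p below is that value. The median log2 difference over all tested genes was 0.00. Of the called genes 1097 rose and 757 fell by more than 1 on the log2 scale, and 437 rose and 171 fell by more than 2. In 2489 of the 2491 called genes the 2 libraries of P28 lay wholly above or below those of P7, and the same was true of 56% of all tested genes, so such separation is common in 4 libraries. Leaving out P7 replicate 1 left 1557 calls (1007 higher and 550 lower), and leaving out P28 replicate 1 left 1570 (899 higher and 671 lower), and 0 calls changed direction. An exact permutation test of 2 libraries against 2 cannot go below p = 0.333, so single summed levels are given without a test.

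**Figure D1:**
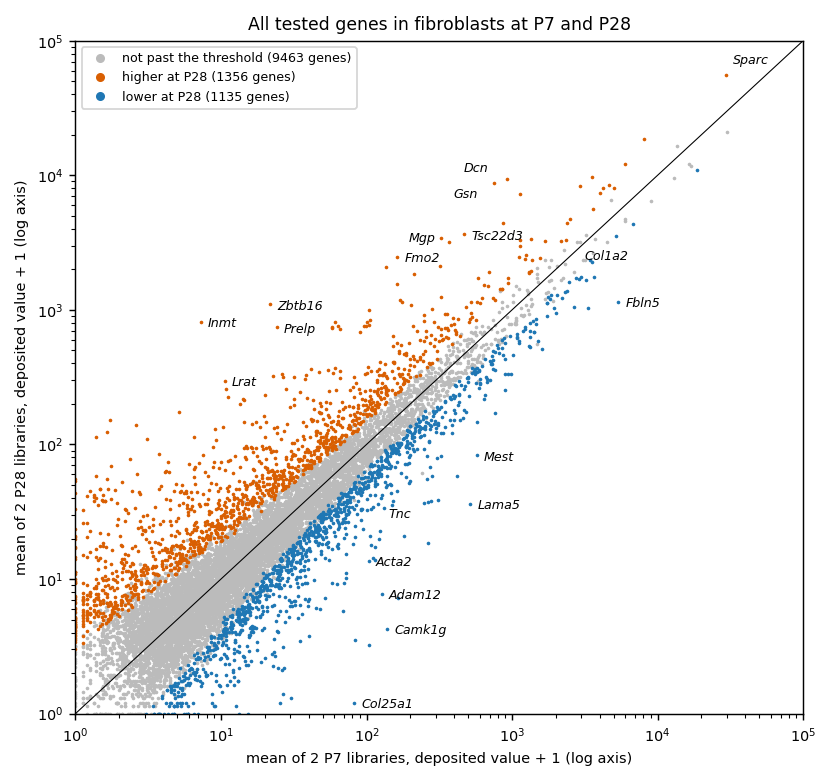
Mean deposited value + 1 of each tested gene in the 2 P7 libraries (x axis, log) and the 2 P28 libraries (y axis, log), with the line of equality. Orange points are the 1356 genes higher at P28 and blue points the 1135 lower, and among the labelled genes Inmt lies well above the line and Col25a1 well below it.

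The largest rise was that of Inmt, which encodes a methyltransferase acting on tryptamine and related amines and lies on chromosome 6 (GRCm38, 55170626 to 55175043, minus strand, protein coding). It read 7.09 and 5.43 at P7 and 735 and 889 at P28 and was low in both P7 libraries and abundant in both P28 libraries (log2 difference 6.81, SE 0.24, adjusted p = 7.39e-13). Zbtb16, a zinc-finger transcription factor induced by glucocorticoids in many cells (chromosome 9, 48654297 to 48836222, minus strand), read 23.1 and 18.4 at P7 and 1148 and 1054 at P28 (log2 difference 5.67, SE 0.20, adjusted p = 7.39e-13). Crispld2, a secreted protein first described in the late-gestation rat lung, read 1.05 and 0.418 at P7 and 181 and 121 at P28 (log2 difference 6.45). Enzymes of retinoid and aldehyde handling were among the 15 largest rises: Aldh1a1, which makes retinoic acid from retinal, read 2.36 and 0.835 at P7 and 149 and 127 at P28. Its neighbour in sequence Aldh1a7 read 2.101 and 2.09 at P7 and 127 and 92.5 at P28, and Lrat, which stores retinol as esters, read 12.1 and 7.098 at P7 and 312 and 278 at P28. The other large rises by the same rule were the glutathione transferase Gsta3, Wfdc10, the actin regulator Wipf3, the chemokine Cxcl14, the matrix proteoglycan Prelp, the leukocyte lysosomal gene Laptm5, Jade2, the adventitial gene Pi16 and the sulphate-donor synthase Papss2, with log2 differences of 4.44 to 5.78. Wfdc10 and Gsta3 had 0 reads in both P7 libraries, so they were at least 110.5-fold and at least 111-fold higher, against 3 reads over the P7 group. Wipf3 had 3 reads in the P7 group, a ratio of 110.5 with a 95% counting interval of 37.5 to 538.8.

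The largest fall was that of Col25a1, a collagen anchored in the plasma membrane (chromosome 3, 130131501 to 130599877, plus strand). It read 78.5 and 84.3 at P7 and 0 and 0.399 at P28, the P28 value resting on 1 read, and the ratio of P7 to P28 was 476 with a 95% counting interval of 85.0 to 18839 (log2 difference -6.12, SE 0.25, adjusted p = 5.2e-12). Camk1g, a calcium-dependent kinase, read 126 and 147 at P7 and 5.32 and 1.196 at P28, and Ddah1, which degrades an inhibitor of nitric oxide synthesis, read 108 and 98.1 at P7 and 0.886 and 3.59 at P28. The fatty acid transporter Slc27a6 read 167 and 159 at P7 and 10.04 and 2.39 at P28. The metalloproteinase Adam12 read 144 and 109 at P7 and 7.97 and 5.58 at P28, and the hyaluronan-degrading protein Cemip read 242 and 285 at P7 and 14.5 and 20.3 at P28. Lama5, the alpha chain of laminins in epithelial and vascular basement membranes (chromosome 2, 180176373 to 180225859, minus strand), read 508 and 526 at P7 and 34.3 and 36.3 at P28 and was low in both P28 libraries (log2 difference -3.84, SE 0.19, adjusted p = 8.81e-11). Capn6, Adamts19, Sept9, Rnf144a, the sulphotransferase Chst2, the smooth muscle actin Acta2, the collagen receptor subunit Itga1 and the basement membrane protein Nid2 completed the 15 largest falls, with log2 differences of -4.54 to -2.91.

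**Figure D2:**
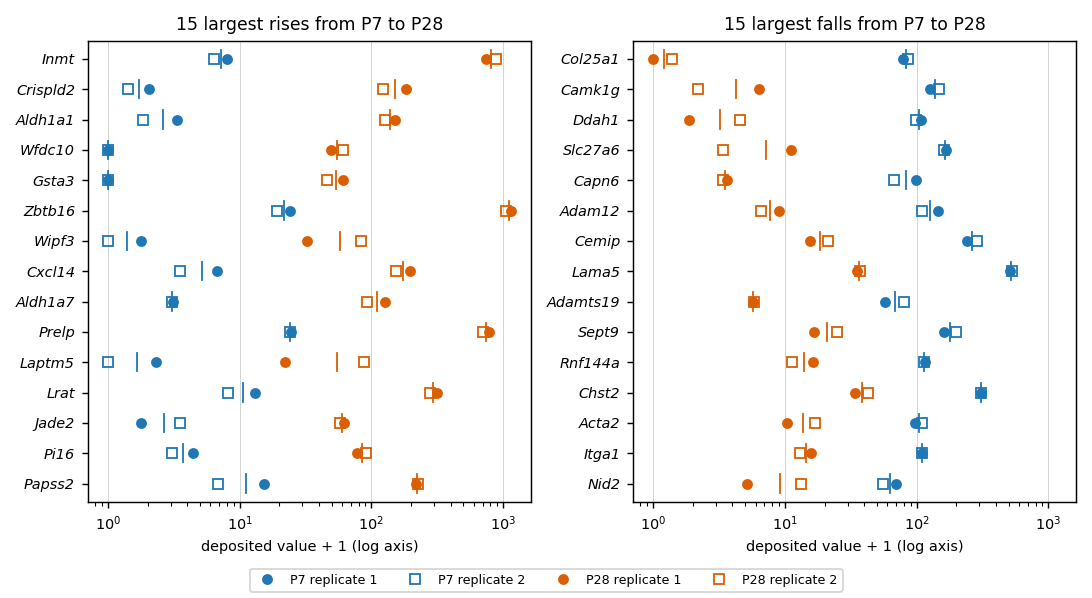
Deposited value + 1 (log axis) in each of the 4 libraries for the 15 largest rises and the 15 largest falls past the threshold, in genes whose higher age averaged 50 value units or more, filled circles for replicate 1, open squares for replicate 2 and a bar at each mean. The P28 points (orange) and the P7 points (blue) do not overlap for any of the 30 genes, which the choice of genes required, and the widest gap between P28 replicates is that of Laptm5, at 21.3 and 86.5.

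Among the 10 most abundant genes of each age the log2 differences were smaller. Sparc, a secreted protein that binds collagen, had the highest value in both P28 libraries and read 28848 and 30066 at P7 and 55882 and 55161 at P28 (log2 difference 0.91, SE 0.21, adjusted p = 0.00385). Eef1a1, the elongation factor of translation, read 35126 and 25109.6 at P7 and 19198 and 22661 at P28, above Sparc in P7 replicate 1 and below it in P7 replicate 2, and did not pass (adjusted p = 0.131). The small heat shock gene Hspb1 rose (8704 and 7346 against 18526 and 18397), as did Ifrd1 (3212 and 3829 against 8477 and 11089), while the intermediate filament gene Vim did not pass (15403 and 11611 against 17396 and 15738, adjusted p = 0.32). A predicted gene without a name in the annotation used here, Gm33784, was also among the 10 at P28 (5829.6 and 6172 against 15236 and 8860.4). The remaining abundant genes encode ribosomal proteins and are described with that group. Gm33784 was not called without P28 replicate 1 (adjusted p = 0.143).

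Genes were then read in lists by function, each described by how many of its tested members passed in each direction and by its median log2 difference, beside the 11.3% higher, 9.49% lower and median of 0.00 over all tested genes. The lists were not tested as sets. Members and lists were chosen with earlier results of these data known, so the shares below may partly reflect that choice. Because each library is a bulk of sorted cells, a lower level of a gene can mean fewer cells of a type or less RNA per cell, and these cannot be told apart.

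**Figure D3:**
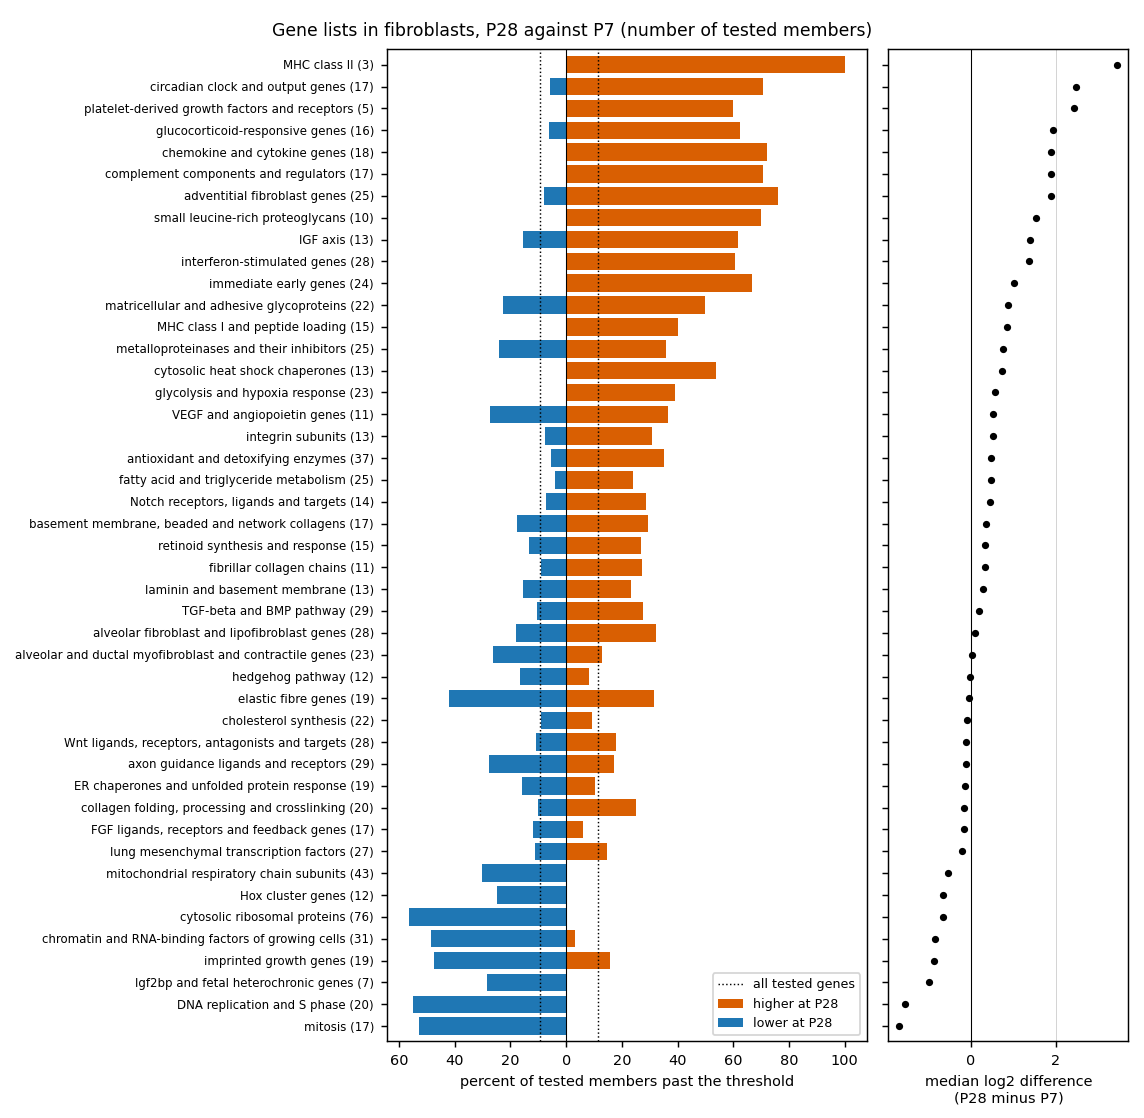
Percent of the tested members of each gene list that were higher (orange, right) or lower (blue, left) at P28, with dotted lines at the shares over all tested genes (11.3% and 9.49%), and beside it the median log2 difference of the list. Lists are ordered by median, from mitosis at -1.68 to MHC class II at 3.45, and the number of tested members stands in parentheses.

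Genes of DNA replication and mitosis that passed the test were all lower at P28. Of 20 tested genes of DNA replication 11 fell and 0 rose, with a median log2 difference of -1.54, and of 17 tested genes of mitosis 9 fell and 0 rose, with a median of -1.68. Tk1, the salvage kinase for thymidine, read 65.4 and 76.4 at P7 and 7.68 and 10.8 at P28 (log2 difference -2.83, SE 0.32, adjusted p = 3.59e-06), and Gins2, a part of the replicative helicase, read 92.95 and 49.3 at P7 and 10.04 and 9.97 at P28. The primase subunit Prim1 read 186 and 111 at P7 and 32.8 and 36.7 at P28. Top2a, the topoisomerase that untangles replicated chromosomes, read 107 and 120.3 at P7 and 21.3 and 11.6 at P28 (log2 difference -2.78, SE 0.33, adjusted p = 6.67e-06), and Nusap1 of the spindle read 49.9 and 20.04 at P7 and 6.201 and 2.79 at P28. Mki67, the common proliferation marker, read 13.4 and 15.9 at P7 and 4.13 and 1.595 at P28, and Ccnb2, a cyclin of mitotic entry, read 22.1 and 17.1 at P7 and 5.91 and 4.39 at P28. The sliding clamp Pcna did not pass (23.1 and 19.2 against 15.9 and 17.5, adjusted p = 0.632), and neither did Rrm1 (28.4 and 25.9 against 22.7 and 17.1) or Prc1 (14.97 and 23.8 against 19.2 and 14.8). Cdk1, the kinase of mitotic entry, stood at 3.68 or less in every library. For DNA replication, 5 fell without P7 replicate 1 and 6 fell without either P28 library. For mitosis, 4 fell without P7 replicate 1 and 5 fell without either P28 library. With DESeq2 on the recovered reads, 5 genes of each list fell, and with no filter on low values 6 of replication did. Mki67 was not called without P28 replicate 2 (adjusted p = 0.0603). Ccnb2 was not called without P7 replicate 1 or P28 replicate 2 (adjusted p = 0.0707 and 0.0634).

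The promoters of mitotic genes are known for paired CCAAT boxes and a cell cycle element with the core TTTGAA. Of these, the TTTGAA element is the one known to be bound by repressor complexes in resting cells. Promoter sequence, the 250 bases before the annotated start, came from RefSeq (GRCm38.p6), where 7 of the 9 mitosis genes that fell were matched, with 7 starts. CCAAT on either strand lay in 6 of those 7 starts (85.7%) against 33.8% of all 32851 starts, and TTTGAA on either strand in 4 of 7 (57.1%) against 16%. Among the genes of DNA replication that fell, 8 of 11 were matched, with 12 starts: CCAAT lay in 7 (58.3%), TTTGAA in 0, and TTTGGCGC, a form of the E2F site, in 1 (8.33%, against 0.417% of all starts). The 2 promoters with the smallest p that hold both motifs are shown in the direction of transcription, ending at the base before the start, with each match on either strand in capitals. Top2a spans chr11:99024190-99024439 and Mki67 chr7:135716380-135716629, both on the minus strand. A match describes these letters and says nothing of binding. The genes were picked for their part in mitosis or replication, so these shares describe the lists as they were drawn up.
Top2a: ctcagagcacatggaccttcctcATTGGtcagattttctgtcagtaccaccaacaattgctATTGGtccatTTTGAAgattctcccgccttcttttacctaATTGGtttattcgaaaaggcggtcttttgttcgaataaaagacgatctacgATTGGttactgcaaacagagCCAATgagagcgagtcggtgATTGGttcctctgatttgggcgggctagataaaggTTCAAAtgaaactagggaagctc
Mki67: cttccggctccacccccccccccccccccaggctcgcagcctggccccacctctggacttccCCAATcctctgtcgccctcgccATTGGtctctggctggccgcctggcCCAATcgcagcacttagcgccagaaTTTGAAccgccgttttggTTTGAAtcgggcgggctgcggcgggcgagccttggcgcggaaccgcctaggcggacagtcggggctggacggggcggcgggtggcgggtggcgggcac

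Factors of chromatin and RNA that are abundant in growing cells moved the same way, with 15 of 31 tested lower, 1 higher and a median of -0.85. Hmgb2, a DNA-bending protein of dividing cells, read 29.1 and 32.2 at P7 and 5.32 and 6.38 at P28, the tubulin Tubb5 read 113 and 68.1 at P7 and 24.5 and 28.7 at P28, the condensin subunit Smc4 read 106 and 67.6 at P7 and 30.7 and 42.7 at P28, and Ezh2, the methyltransferase of Polycomb repression, read 316 and 262 at P7 and 148 and 132 at P28 (log2 difference -1.03, SE 0.19, adjusted p = 0.000625). The exception was the nucleolar gene Nop58, which rose (50.9 and 47.2 against 112 and 91.7). For these factors, 2 rose without P7 replicate 1, 6 fell without P7 replicate 1, 8 fell without P28 replicate 1 and 9 fell without P28 replicate 2. With no filter on low values 8 fell.

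Among imprinted genes, which are read from 1 parental copy and of which many promote or restrain fetal growth, 9 of 19 tested fell and 3 rose, with a median of -0.86. Mest, a paternally expressed gene of fetal mesoderm, read 588 and 552 at P7 and 65.9 and 97.7 at P28 (log2 difference -2.81, SE 0.22, adjusted p = 2.94e-08). The zinc-finger gene Zim1 read 46.2 and 30.5 at P7 and 6.497 and 5.18 at P28, Igf2r, the receptor that clears insulin-like growth factor 2, read 338 and 350.3 at P7 and 127 and 142 at P28, and Nnat read 100.04 and 88.5 at P7 and 25.4 and 19.5 at P28. Cdkn1c, an inhibitor of cyclin-dependent kinases, read 275 and 218 at P7 and 113 and 70.2 at P28. Impact, a regulator of translation, rose (142 and 166 against 446 and 375, log2 difference 1.41, SE 0.22, adjusted p = 0.000136), and so did the noncoding RNAs Rian (112 and 81.4 against 173 and 187) and Meg3 (93.7 and 111 against 153 and 182), which lie in the same imprinted domain. H19 fell, with P28 replicate 1 well below replicate 2 (73.8 and 46.3 at P7 and 0.591 and 39.1 at P28). Of 7 tested Igf2bp and other fetal-stage genes 2 fell: Igf2bp3, which binds Igf2 messages (22.8 and 24.2 against 0 and 2.39, log2 difference -3.73, SE 0.39, adjusted p = 1.39e-06), and Sox4 (50.4 and 75.2 against 21.6 and 12.8). Lin28b was listed at 0 in all 4 libraries. Igf2 itself stood at 4.99 and 4.18 at P7 and 2.66 and 2.79 at P28 and did not pass. Meg3 was not called without P7 replicate 1 or P28 replicate 2 (adjusted p = 0.119 and 0.125). H19 was not called without either P7 library or P28 replicate 1 (adjusted p = 0.146, 0.0571 and 0.22).

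Of 76 tested ribosomal protein genes, the parts of the translation machine, 43 fell and 0 rose, with a median of -0.66, and their summed level in value units was 130029 and 115600 at P7 and 80421 and 82192 at P28. Rpl32 read 521 and 412 at P7 and 180.1 and 177 at P28 (log2 difference -1.37, SE 0.22, adjusted p = 0.000158) and Rpl39 read 147 and 128 at P7 and 39.9 and 58.6 at P28. Tags of ribosomal genes can be shared with their many pseudogene copies, so single members are uncertain. For ribosomal proteins, 10 fell without P7 replicate 1, 17 fell without P28 replicate 1 and 25 fell without P28 replicate 2. With no filter on low values 9 fell, and 23 fell with the 4 libraries alone in the fit. Subunits of the mitochondrial respiratory chain, which make most cellular ATP, showed 13 of 43 lower, 0 higher and a median of -0.54, among them Ndufb5 (249 and 169.5 against 111 and 98.9), Atp5c1 (2474 and 2121 against 1245 and 1488) and Sdhc (1205 and 971 against 523 and 738). For the respiratory chain, 3 fell without P7 replicate 1, 8 fell without P7 replicate 2, 7 fell without P28 replicate 1 and 4 fell without P28 replicate 2. The same changes of filter and fit left 6 and 7. Sdhc was not called without P7 replicate 1 or P28 replicate 1 (adjusted p = 0.0665 and 0.0968).

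Matrix genes changed in both directions. Of the fibrillar collagens, the load-bearing chains, Col1a1 stood at 1878 and 1842 at P7 and 2730.1 and 2001 at P28 and did not pass (adjusted p = 0.229). Of 11 tested chains 3 rose and 1 fell, and the risers included Col3a1 (5399.97 and 4643 at P7 and 8772 and 7233 at P28, log2 difference 0.67, SE 0.18, adjusted p = 0.013) and Col5a1 (187 and 211 against 335 and 299). For fibrillar collagens, 1 rose without P7 replicate 1 or P28 replicate 1 and 0 fell without any 1 of the 4 libraries. Of 20 tested genes for folding, trimming and crosslinking collagen 5 rose and 2 fell. Risers included the procollagen C-proteinase enhancers Pcolce (2493 and 2271 at P7 and 4458 and 4408 at P28) and Pcolce2 (104 and 63.5 at P7 and 259.6 and 314 at P28), the N-proteinase Adamts2 (71.7 and 87.3 against 219 and 157) and the prolyl hydroxylase P4ha1 (159.9 and 161 against 272 and 297), while Crtap, of the prolyl 3-hydroxylase complex, fell (25.995 and 21.3 against 8.86 and 9.97). For collagen processing, 1 fell without P7 replicate 1. Among collagens of basement membranes and networks 5 of 17 rose and 3 fell. Col15a1 read 6.04 and 7.098 at P7 and 89.2 and 76.97 at P28 (log2 difference 3.47, SE 0.53, adjusted p = 8.72e-05), Col4a5 read 8.403 and 8.77 at P7 and 34.6 and 36.7 at P28 and Col14a1, which decorates collagen fibrils, read 16.3 and 16.3 at P7 and 49.3 and 52.2 at P28, whereas Col4a1 did not pass (1992 and 1619.7 against 1915 and 1356), nor did Col4a2 (1500.1 and 1499 against 1786 and 1448). Beside Col25a1, Col13a1 fell (2149 and 1353 against 920.5 and 872), as did Col18a1 (685 and 510.2 against 313 and 298). For the other collagens, 3 rose without either P28 library. Col3a1 was not called without P7 replicate 2 or P28 replicate 1 (adjusted p = 0.0643 and 0.106). Col5a1 was not called without P7 replicate 1 or P28 replicate 1 (adjusted p = 0.0779 and 0.0854). Col13a1 was not called without P7 replicate 1 (adjusted p = 0.0534).

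The elastic fibre list, with 19 tested, divided into 8 genes that fell and 6 that rose. Elastic fibres form when tropoelastin is laid on fibrillin microfibrils and crosslinked by lysyl oxidases. Fbln5, which brings tropoelastin and the crosslinking enzyme together, read 5951 and 4818 at P7 and 1197 and 1109 at P28 and fell in both P28 libraries (log2 difference -2.22, SE 0.17, adjusted p = 2.64e-08). Eln, tropoelastin itself, read 827 and 790.4 at P7 and 345 and 603 at P28 (log2 difference -0.83, SE 0.22, adjusted p = 0.0112). Both P28 libraries lay below both P7 libraries, as in 28.1% of all tested genes. Of the microfibril genes, Mfap4 read 1790.01 and 2210.1 at P7 and 961 and 926 at P28 and Mfap2 read 18.6 and 24.2 at P7 and 4.13 and 6.38 at P28. The fetal fibrillin Fbn2 read 3.68 and 7.52 at P7 and 0 and 1.595 at P28. Fbn1, the main fibrillin after birth, did not pass (319 and 409.6 against 339.9 and 295), nor did the lysyl oxidase Lox (753 and 938 against 881 and 1418). Rising members were the binding proteins of latent TGF-beta Ltbp4 (314 and 265 at P7 and 789 and 822 at P28, log2 difference 1.48, SE 0.17, adjusted p = 4.33e-06) and Ltbp1 (76.9 and 82.3 against 181 and 195), and the fibulins Fbln1 (139.7 and 180.4 at P7 and 604 and 524 at P28, log2 difference 1.82, SE 0.18, adjusted p = 7.23e-07), Fbln2 (1.84 and 2.92 against 8.56 and 13.6) and Efemp1 (2.63 and 2.09 against 18.3 and 25.1). For the elastic fibre, 4 fell without P28 replicate 1. Eln was not called without P7 replicate 1 or P28 replicate 1 (adjusted p = 0.0709 and 0.215). Fbn2 was not called without P7 replicate 2 or P28 replicate 1 (adjusted p = 0.1 and 0.146). Fbln2 was not called without P7 replicate 1 or P28 replicate 2 (adjusted p = 0.0713 and 0.0827).

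Laminins and other basement membrane genes gave 3 rises and 2 falls among 13 tested. The fall of Lama5 stood against a rise of Lama2 (45.2 and 37.2 at P7 and 144 and 156 at P28, log2 difference 1.84, SE 0.23, adjusted p = 1.08e-05), the alpha chain found in muscle and mesenchyme, and of Lamc3 (0.788 and 1.67 against 13.9 and 7.18). Lama4 did not pass (963 and 659 against 1147 and 766), nor did Lamb1 (355 and 477 against 571 and 475) or Lamc1 (243 and 284 against 291 and 247). Nephronectin, encoded by Npnt, rose (2145 and 2193 at P7 and 3192 and 3300.01 at P28, log2 difference 0.58, SE 0.17, adjusted p = 0.0223), and so did the integrin chain it binds, Itga8 (644 and 506 at P7 and 1237 and 1065 at P28, log2 difference 1.01, SE 0.19, adjusted p = 0.000637). For laminins, 1 rose without P28 replicate 1. Among integrin subunits 4 of 13 rose and 1 fell, the others that rose being Itgb5 (354 and 337 against 729 and 731), Itga9 (11.03 and 13.4 against 53.7 and 51.4) and Itgb8 (6.83 and 7.93 against 22.4 and 15.2). The fall was that of Itga1 (109 and 109 at P7 and 14.8 and 11.96 at P28, log2 difference -2.94, SE 0.25, adjusted p = 7.19e-08). Lamc3 was not called without P28 replicate 1 (adjusted p = 0.0592). Npnt was not called without P7 replicate 1 or either P28 library (adjusted p = 0.0726, 0.0668 and 0.0848). Itgb8 was not called without any 1 of the 4 libraries (adjusted p = 0.165, 0.088, 0.248 and 0.0625).

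Small leucine-rich proteoglycans, which coat collagen fibrils and set their width, rose in 7 of 10 tested, with 0 falls and a median of 1.53. Decorin, encoded by Dcn, read 1063 and 782 at P7 and 7291 and 11433 at P28 (log2 difference 3.32, SE 0.21, adjusted p = 2.35e-09). Prelp read 23.4 and 22.97 at P7 and 782 and 701 at P28 (log2 difference 4.94, SE 0.26, adjusted p = 1.36e-10), Podn read 98.99 and 79.8 at P7 and 615 and 748 at P28 and Ecm2 read 53.8 and 53.4 at P7 and 296 and 417 at P28. Biglycan, encoded by Bgn, rose less (1143 and 1071 against 2659 and 2313, log2 difference 1.16), and Fmod did not pass (11.8 and 12.1 against 12.1 and 12.8).

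**Figure D4:**
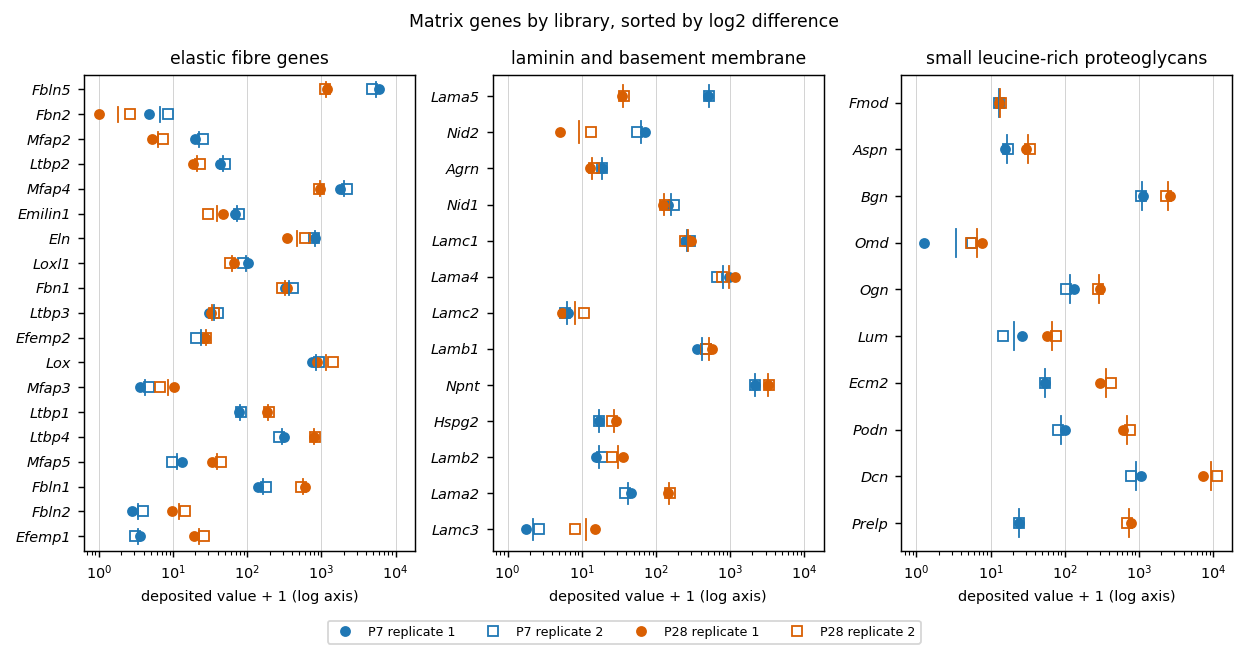
Deposited value + 1 (log axis) of every tested gene of the elastic fibre, basement membrane and small proteoglycan lists in the 4 libraries, filled circles for replicate 1, open squares for replicate 2, with bars at the means of 2 libraries. Fbln5 and Lama5 sit at the low end of P28 against P7, Fbln5 at 1197 and 1109 and Lama5 at 34.3 and 36.3 value units at P28, while Prelp and Dcn show wide gaps in the other direction.

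Matricellular and adhesive glycoproteins, which bind cells and matrix without bearing load, showed 11 rises and 5 falls in 22 tested. Those that fell included genes known from growing or remodelling tissue: tenascin C, encoded by Tnc, read 223 and 274 at P7 and 33.4 and 37.5 at P28 (log2 difference -2.77, SE 0.20, adjusted p = 7.23e-09), versican (Vcan) read 91.6 and 117 at P7 and 19.5 and 19.9 at P28, periostin (Postn) read 18.6 and 11.3 at P7 and 0.886 and 1.99 at P28 and fibronectin (Fn1) read 964 and 915 at P7 and 381 and 288 at P28 (log2 difference -1.50, SE 0.18, adjusted p = 6.6e-06). Those that rose included Smoc2 (23.9 and 26.7 at P7 and 311 and 359 at P28, log2 difference 3.67, SE 0.18, adjusted p = 8.52e-11), tenascin X, encoded by Tnxb (3.41 and 2.92 against 67.3 and 58.2), matrix Gla protein, an inhibitor of calcification encoded by Mgp (375 and 357 at P7 and 3423 and 2929 at P28, log2 difference 3.11, SE 0.19, adjusted p = 2.07e-09), and Ctgf (227 and 96.9 against 1579 and 1519). Metalloproteinases and their inhibitors gave 9 rises and 6 falls in 25 tested. The membrane collagenase Mmp14 fell (1744 and 1481 at P7 and 433 and 597 at P28, log2 difference -1.66, SE 0.18, adjusted p = 2.29e-06), as did Adam19 (20.5 and 31.7 against 1.18 and 1.196) and Adamts17 (125 and 169 against 36.3 and 48.3), while the inhibitor Timp3 rose (57.8 and 58.5 at P7 and 270.5 and 406 at P28, log2 difference 2.49, SE 0.21, adjusted p = 7.69e-08), with Timp2 (503 and 547 against 908 and 983), Mmp3 (0.263 and 1.67 against 21.9 and 31.9) and Adamts15 (32.6 and 41.8 against 166 and 104). The gelatinase Mmp2 did not pass (138 and 112 against 145 and 101). For the metalloproteinase list, 5 rose without P7 replicate 1 or P28 replicate 1.

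Markers of fibroblast kinds were compared next. Of 23 tested genes of alveolar and ductal myofibroblasts and their contractile apparatus 6 fell (26.1%) and 3 rose (13%). The shares over all tested genes were 9.49% and 11.3%. The other 14 did not pass, the median log2 difference was 0.01, and 13 of the 23 differences were above 0. Acta2 read 95.8 and 109 at P7 and 9.45 and 15.95 at P28 (log2 difference -2.95, SE 0.26, adjusted p = 1.64e-07), the myosin light chain Myl9 read 29.1 and 33.8 at P7 and 5.61 and 5.18 at P28, the tropomyosin Tpm2 read 633 and 522 at P7 and 131 and 159 at P28 and the endothelin receptor Ednrb read 40.96 and 32.6 at P7 and 9.45 and 7.18 at P28. Tagln, an actin-binding protein of the same cells, did not pass (71.2 and 34.2 against 41.6 and 59.8), nor did Hhip, a hedgehog antagonist (199.8 and 266 against 225 and 249.6). Enpp2, which makes lysophosphatidic acid, rose (5.25 and 5.85 at P7 and 83.3 and 46.3 at P28), as did Igfbp5 (40.2 and 81.01 against 271 and 233).

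Alveolar fibroblast and lipofibroblast genes changed in both directions, 9 higher and 5 lower of 28 tested, with a median of 0.09. Beside Inmt, the risers included the sodium channel genes Scn3a (14.7 and 10.4 at P7 and 214 and 181 at P28) and Scn7a (12.6 and 10.9 against 46.1 and 44.7), Mettl7a1 (33.1 and 28.8 against 281 and 346) and the cysteine dioxygenase Cdo1 (799 and 922 at P7 and 4229 and 4586 at P28, log2 difference 2.36, SE 0.18, adjusted p = 2.09e-08). Those that fell included Gyg, the primer of glycogen synthesis (454 and 375 at P7 and 60.2 and 54.6 at P28, log2 difference -2.82, SE 0.19, adjusted p = 3.69e-09), the alcohol dehydrogenase Adh1 (418 and 355 against 112 and 129) and the signal Wnt2 (47.8 and 39.2 against 12.4 and 13.96). The lipid droplet coat gene Plin2 (665 and 643 against 532 and 479), G0s2 (2251 and 1816 against 1752 and 2467) and the transcription factor Tcf21 (293 and 175 against 296 and 266) did not pass. Pparg, the fat-cell regulator, was near the detection limit (1.05 and 1.25 at P7 and 0 and 0 at P28).

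Adventitial fibroblast genes, known from the sheaths of vessels and airways, rose in 19 of 25 tested and fell in 2, with a median of 1.87. Gelsolin, an actin-severing protein encoded by Gsn, read 687 and 805 at P7 and 7955 and 9438 at P28 (log2 difference 3.54, SE 0.19, adjusted p = 1.37e-10), Igfbp6 read 377 and 273 at P7 and 3279.9 and 3561 at P28 (log2 difference 3.41, SE 0.20, adjusted p = 7.03e-10), and Pi16 read 3.41 and 2.09 at P7 and 77.1 and 90.1 at P28 (log2 difference 4.51, SE 0.44, adjusted p = 4.19e-07). Hsd11b1, an enzyme that regenerates active glucocorticoid, read 11.8 and 4.18 at P7 and 70.9 and 74.6 at P28. The hyaluronan synthase Has1 read 4.99 and 6.26 at P7 and 62.6 and 37.1 at P28. Ly6a, which shares sequence with Ly6c1, read 0.788 and 1.25 at P7 and 14.8 and 24.7 at P28. Dpt went the other way (386 and 413 against 233 and 208), as did Igfbp4 (724 and 487 against 283 and 289.9), and Cd34 did not pass (326 and 560.4 against 664 and 663). Several members are matrix genes counted in the lists above.

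Growth factor pathways were read from ligand to target. In the platelet-derived family Pdgfra, the receptor that marks most lung fibroblasts, read 6.56 and 10.02 at P7 and 112 and 102 at P28 (log2 difference 3.57, SE 0.29, adjusted p = 3.87e-08), Pdgfrb read 1.31 and 0.418 at P7 and 9.74 and 7.98 at P28 and the ligand Pdgfd read 1.05 and 1.67 at P7 and 11.2 and 11.96 at P28, so 3 of 5 tested rose and 0 fell. Pericyte markers other than Pdgfrb moved in both directions, Abcc9 rising (14.4 and 15.9 against 100.1 and 88.1) and Notch3 falling (7.35 and 7.52 against 1.48 and 1.595), with Rgs5 at 1.67 or less in every library. Their part in the result was not tested. Notch3 was not called without any 1 of the 4 libraries (adjusted p = 0.0708, 0.0633, 0.0777 and 0.0632).

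In the insulin-like growth factor axis 8 of 13 rose and 2 fell. Igf1, a ligand made by mesenchyme, read 182 and 211 at P7 and 410.2 and 446 at P28 (log2 difference 1.12, SE 0.19, adjusted p = 0.000334). The binding proteins Igfbp6 (377 and 273 against 3279.9 and 3561), Igfbp3 (25.995 and 26.3 at P7 and 128 and 122 at P28) and Igfbp5 rose (40.2 and 81.01 against 271 and 233). Pappa, a protease that cuts some binding proteins of this family, rose as well (8.14 and 7.52 at P7 and 75.01 and 57.8 at P28, log2 difference 2.92, SE 0.27, adjusted p = 1.96e-07). The falls were those of Igf2r (338 and 350.3 against 127 and 142) and Igfbp4 (724 and 487 against 283 and 289.9), and the receptor Igf1r did not pass (114 and 146 against 94.5 and 92.1).

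In the TGF-beta and BMP pathways 8 of 29 rose (27.6%) and 3 fell (10.3%), against 11.3% and 9.49% of all tested genes. Of the ligands, Tgfb2 fell (53.3 and 64.3 at P7 and 23.6 and 19.1 at P28, log2 difference -1.42, SE 0.26, adjusted p = 0.000625), while Tgfb1 did not pass (11.3 and 9.19 against 7.97 and 13.2), nor did Tgfb3 (60.9 and 52.2 against 95.1 and 84.9). Of the receptors, Tgfbr3 read 126 and 176 at P7 and 297 and 777 at P28 and Tgfbr2 read 17.3 and 23.8 at P7 and 43.4 and 47.5 at P28, both rises. The BMP target Id1 fell (42.8 and 26.7 against 12.4 and 15.2), as did the feedback inhibitor Smad6 (92.7 and 84.8 against 39.9 and 53.8). For the TGF-beta and BMP genes, 5 rose without P7 replicate 1 or P28 replicate 1. Tgfbr2 was not called without P7 replicate 1 (adjusted p = 0.0512). Id1 was not called without P7 replicate 1 (adjusted p = 0.0737). Smad6 was not called without P28 replicate 1 (adjusted p = 0.0695).

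Wnt signalling gave 5 rises and 3 falls in 28 tested (17.9% and 10.7%, against 11.3% and 9.49% of all tested genes). Rspo2, a secreted amplifier of Wnt signals, fell to near the detection limit (20.5 and 30.9 at P7 and 0 and 0.798 at P28, log2 difference -4.29, SE 0.44, adjusted p = 9.55e-07). Wnt2 also fell (47.8 and 39.2 against 12.4 and 13.96), and Rspo3 rose (6.04 and 2.92 against 21.3 and 11.6), as did Wnt9a (3.15 and 4.59 against 12.99 and 15.2) and the antagonist Sfrp1 (13.1 and 6.26 at P7 and 41.3 and 31.5 at P28). The target gene Axin2 did not pass (83.8 and 68.1 against 51.97 and 53.4, adjusted p = 0.0721), nor did Wnt5a (86.7 and 60.5 against 45.2 and 69.8). For Wnt genes, 2 rose without P28 replicate 1. Rspo3 was not called without P7 replicate 2 or P28 replicate 1 (adjusted p = 0.162 and 0.2). Wnt9a was not called without P7 replicate 1 or P28 replicate 2 (adjusted p = 0.063 and 0.0583).

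Hedgehog genes gave 1 rise and 2 falls in 12 tested (8.33% and 16.7%, against 11.3% and 9.49% of all tested genes). Gas1, a co-receptor, rose (9.72 and 7.098 at P7 and 26.3 and 26.7 at P28), and the receptor and target Ptch1 fell (62.5 and 73.9 against 44.3 and 39.1), while the target Gli1 did not pass (26.3 and 20.9 against 19.8 and 24.7). For hedgehog genes, 1 fell without P7 replicate 1 or P28 replicate 1 and 0 fell without P7 replicate 2 or P28 replicate 2. In the FGF list 1 of 17 rose (5.88%), Fgf2 (182 and 152 at P7 and 558 and 437 at P28, log2 difference 1.56, SE 0.19, adjusted p = 7.74e-06), and 2 fell (11.8%), among them Fgfr3 (44.6 and 58.5 against 27.5 and 15.6). Fgf10, the mesenchymal signal for epithelial growth, stood at 35.2 and 42.2 at P7 and 27.5 and 23.5 at P28 and did not pass (adjusted p = 0.101). For FGF genes, 2 rose without P7 replicate 1 and 1 fell without P7 replicate 2 or either P28 library. Ptch1 was not called without P7 replicate 2 or P28 replicate 2 (adjusted p = 0.113 and 0.105).

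Retinoid genes gave 4 rises and 2 falls in 15 tested. Beside Aldh1a1 and Lrat, the plasma carrier Rbp4 rose (3.94 and 0.835 at P7 and 24.2 and 23.9 at P28, log2 difference 3.06, SE 0.49, adjusted p = 0.000169), and the cellular binding protein Crabp1 fell (15.5 and 8.77 at P7 and 1.48 and 0 at P28). The other retinoic acid synthases Aldh1a2 (14.7 and 19.6 against 17.4 and 18.7) and Aldh1a3 (8.67 and 13.8 against 9.74 and 9.57) did not pass. For retinoid genes, 1 fell without either P7 library or P28 replicate 2.

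Genes of angiogenic signals gave 4 rises and 3 falls in 11 tested, the firmest being the rise of the co-receptor Nrp1 (115 and 119 at P7 and 291 and 307 at P28, log2 difference 1.35, SE 0.17, adjusted p = 1.32e-05), against a fall of Nrp2 (113 and 124 against 66.1 and 61.4) and of Angptl4 (81.4 and 53.9 against 30.4 and 23.1). Vegfa did not pass (86.9 and 84.3 against 81.8 and 72.6). For angiogenic genes, 1 rose without P7 replicate 2 or P28 replicate 2 and 2 rose without P28 replicate 1. Notch genes gave 4 rises and 1 fall in 14 tested: the effector Heyl rose (13.1 and 7.098 at P7 and 83.3 and 65.4 at P28, log2 difference 2.81, SE 0.31, adjusted p = 2.81e-06), as did the receptor Notch2 (104 and 116 against 232 and 179.9). For Notch genes, 2 rose without P7 replicate 1 or P28 replicate 1 and 0 fell without either P7 library or P28 replicate 2. Of 29 tested guidance genes 5 rose and 8 fell. Slit2, a repellent for growing axons and vessels, fell (429 and 494 at P7 and 170.4 and 139.6 at P28, log2 difference -1.57, SE 0.19, adjusted p = 5.62e-06), with Unc5c (97.7 and 129.9 against 51.97 and 30.7) and Efnb1 (21.3 and 25.5 against 7.38 and 8.37), and Sema4a rose (0.788 and 7.93 at P7 and 53.7 and 44.3 at P28). For guidance genes, 3 rose without P7 replicate 2 or P28 replicate 1, 2 rose without P28 replicate 2, 4 fell without P7 replicate 2 or P28 replicate 2 and 5 fell without P28 replicate 1.

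Transcription factors of lung mesenchyme gave 4 rises and 3 falls in 27 tested. These shares, 14.8% and 11.1%, were close to the 11.3% and 9.49% of all tested genes. The homeobox gene Meox2 fell (95.1 and 68.9 at P7 and 19.2 and 19.5 at P28, log2 difference -2.01, SE 0.23, adjusted p = 3.2e-06), as did Snai2 (470.02 and 343 against 144 and 197). Runx1 rose (8.93 and 12.5 against 28.3 and 34.3), as did Zeb1 (2.101 and 12.5 against 47.5 and 42.7) and Klf15, a target of glucocorticoids (2.63 and 5.85 at P7 and 38.1 and 47.9 at P28, log2 difference 3.13, SE 0.45, adjusted p = 4.44e-05). Tbx4 (35.7 and 30.9 against 29.2 and 20.7), Tbx5 (21.5 and 29.6 against 15.9 and 10.4), Foxf1 (3.68 and 8.35 against 7.38 and 7.98) and Nfib (146 and 134 against 145 and 142) did not pass. Of 12 tested Hox genes 3 fell and 0 rose, Hoxb5 with the smallest p (93.5 and 86.4 at P7 and 31.9 and 32.7 at P28, log2 difference -1.45, SE 0.19, adjusted p = 2.21e-05). For Hox genes, 1 fell without either P7 library.

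Clock genes showed the highest median of the functional lists with more than 5 tested members, cell type markers not counted. The circadian clock is a loop in which Arntl and Clock activate the Per, Cry and Nr1d genes, whose products in turn repress them, and the output factors Dbp, Tef and Hlf follow the loop. Of 17 tested, 12 rose and 1 fell, with a median of 2.46. Nr1d1 read 4.201 and 2.51 at P7 and 73.2 and 72.6 at P28 (log2 difference 4.11, SE 0.49, adjusted p = 5.63e-06), Dbp read 1.58 and 0.835 at P7 and 29.8 and 33.9 at P28 and Hlf read 8.93 and 17.95 at P7 and 214 and 211 at P28 (log2 difference 3.96, SE 0.36, adjusted p = 2.09e-07). Rora read 103 and 94.4 at P7 and 772 and 747 at P28, Tef read 170.2 and 134 at P7 and 537 and 729 at P28, Nr1d2 read 15.2 and 19.6 at P7 and 145 and 120.4 at P28 and Bhlhe40 read 15.5 and 22.97 at P7 and 149 and 142 at P28. In each of these genes both P28 libraries lay above both P7 libraries, as in 27.9% of all tested genes. Per2 rose (7.61 and 8.77 against 46.7 and 52.6) and Per1 did not pass (115 and 213 against 271 and 196). Arntl, the activator, was low throughout and fell (2.63 and 3.76 at P7 and 0 and 0.399 at P28), while Clock did not pass (58.03 and 77.7 against 52.9 and 49.1). The time of day of collection is not in the labels, so its part in these differences was not tested. For clock genes, 0 fell without either P7 library or P28 replicate 1. Arntl was not called without either P7 library or P28 replicate 1 (adjusted p = 0.0609, 0.114 and 0.132).

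The core site of the clock activators is CACGTG, known as the E-box. It lay in the 250 bases before the start in 4 of 11 starts of the clock genes that rose (36.4%, from 10 of 12 genes matched in RefSeq), against 6.02% of all 32851 starts. The genes were picked as parts of the clock, so the match describes the list as it was drawn up. Of other motifs searched on both strands, TTATGTAA, the site of Dbp and its kin, lay in 1 of the 11 (9.09%, against 0.819% of all), and AGGTCA, a core of Nr1d1 and Rora sites, in 1 (9.09%, against 14%). CACGTG reads the same on both strands. The 2 promoters with the smallest p among those that hold it are shown, with CACGTG in capitals: Tef at chr15:81802423-81802672 on the plus strand, and Ciart, a repressor of the loop with 0 reads at P7 (0 and 0 at P7 and 3.84 and 4.39 at P28), at chr3:95882229-95882478 on the minus strand. The copies in Ciart start 116, 58 and 44 bases before the gene. The motifs were chosen from textbook knowledge of each pathway, 11 pairs of list and motif were searched and are all given, and which sequences to show was decided after the matches were seen.
Tef: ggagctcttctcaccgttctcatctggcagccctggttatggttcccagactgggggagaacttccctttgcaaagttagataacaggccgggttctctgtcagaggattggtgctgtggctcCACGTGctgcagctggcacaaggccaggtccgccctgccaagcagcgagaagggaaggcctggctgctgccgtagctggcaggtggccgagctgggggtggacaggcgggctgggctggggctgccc
Ciart: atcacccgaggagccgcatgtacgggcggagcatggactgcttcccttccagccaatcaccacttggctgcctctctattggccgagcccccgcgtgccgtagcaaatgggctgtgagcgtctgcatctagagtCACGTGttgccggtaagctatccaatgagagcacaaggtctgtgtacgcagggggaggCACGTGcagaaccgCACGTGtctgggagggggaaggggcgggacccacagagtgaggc

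Genes known to answer to glucocorticoids rose in 10 of 16 tested and fell in 1, with a median of 1.94. Tsc22d3, an anti-inflammatory leucine-zipper protein, read 559.8 and 370.4 at P7 and 3791 and 3517 at P28 (log2 difference 3.001, SE 0.19, adjusted p = 2.35e-09), and Fkbp5, a chaperone of the receptor, read 5.51 and 4.59 at P7 and 76.2 and 65.8 at P28 (log2 difference 3.57, SE 0.30, adjusted p = 7.33e-08). The metallothionein Mt2 read 10.5 and 15.9 at P7 and 263 and 170.3 at P28, Klf9 read 12.6 and 12.5 at P7 and 71.8 and 61.8 at P28, Cebpd read 185 and 307 at P7 and 935 and 906 at P28 and Sgk1 read 13.1 and 9.19 at P7 and 66.4 and 53.4 at P28. Both P28 libraries lay above both P7 libraries in each, as in 27.9% of all tested genes. The receptor gene Nr3c1 did not pass (84.6 and 127 against 117 and 143, adjusted p = 0.372), and Angptl4 fell (81.4 and 53.9 against 30.4 and 23.1). The receptor's site, searched for as AGAACA, any 3 bases, then TGT, on both strands, lay in 1 of 16 starts of the 8 genes matched (6.25%, against 0.368% of all starts), that of Sgk1. This share too describes a list picked for its known response. Zbtb16 and Hsd11b1, given above, are members too. Without P28 replicate 2, 2 members fell.

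**Figure D5:**
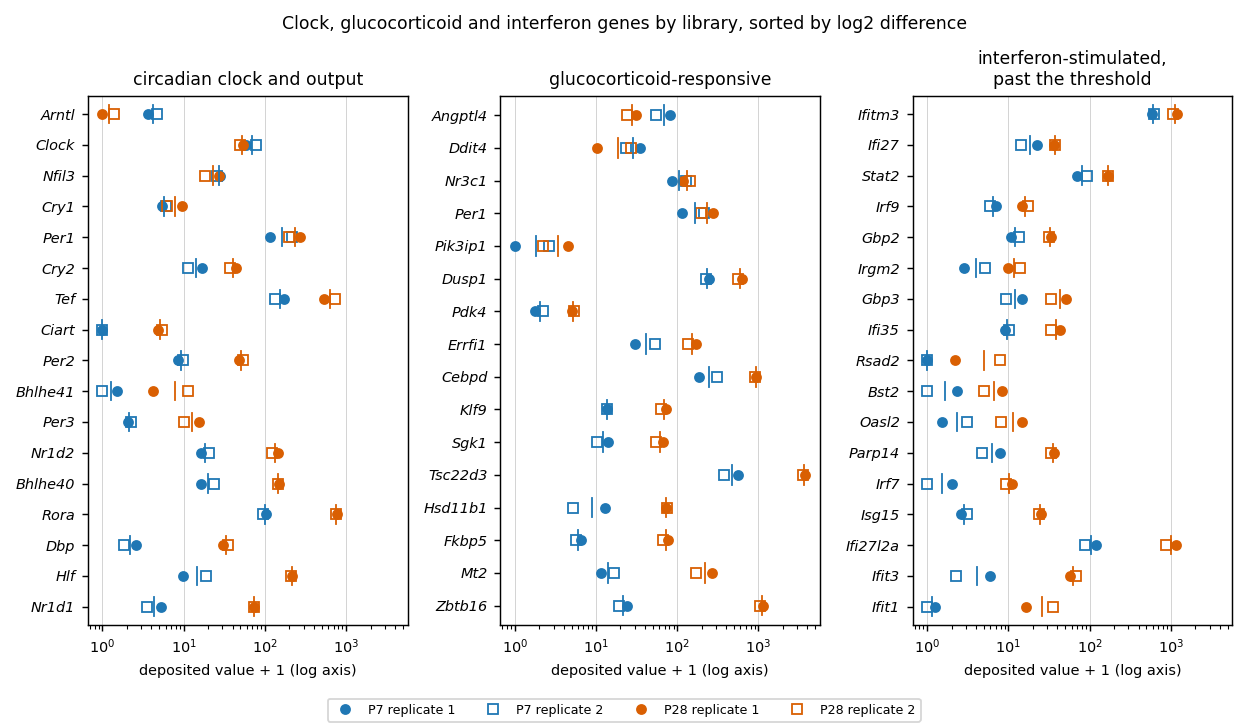
Deposited value + 1 (log axis) in the 4 libraries of every tested gene of the clock and glucocorticoid lists and of the interferon genes past the threshold, with filled circles for replicate 1, open squares for replicate 2 and bars at the means of 2 libraries. The P28 libraries lie to the right of the P7 libraries for 12 clock genes, 10 glucocorticoid genes and 17 interferon genes past the threshold, and to the left for Arntl and Angptl4. Of all 2491 genes past the threshold 2489 were separated in this way, as were 56% of all tested genes.

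Immediate early genes, which are also induced when tissue is digested into single cells, rose in 16 of 24 tested and fell in 0, with a median of 1.01. Without P28 replicate 2, 1 fell. Fos read 4504 and 3973 at P7 and 8348 and 7631 at P28 (log2 difference 0.92, SE 0.19, adjusted p = 0.00147), Fosb read 1054 and 1219 at P7 and 3030.4 and 3563 at P28, Egr3 read 56.2 and 52.6 at P7 and 156 and 162 at P28 and Ier5 read 21.5 and 17.5 at P7 and 74.7 and 80.2 at P28. Their summed level in value units was 16458 and 15409.8 at P7 and 27432 and 29453 at P28. Zfp36 did not pass and differed between the P28 libraries (2562 and 3268 at P7 and 1518 and 4851 at P28). Cytosolic heat shock genes rose in 7 of 13 and fell in 0, Hspb1 (8704 and 7346 at P7 and 18526 and 18397 at P28, log2 difference 1.21, SE 0.21, adjusted p = 0.000299) and the cochaperone Bag3 (314 and 469 against 924 and 803) among them, with a summed level of 23764 and 15806 at P7 and 39185 and 39089.7 at P28. Hspa1a rose (6109 and 3102 against 8392 and 8582), as did Hspa1b (5372 and 2609 against 7206 and 7526), near-identical copies that can share tags. For heat shock genes, 4 rose without P7 replicate 2 and 3 rose without either P28 library. Of the chaperones of the endoplasmic reticulum 2 of 19 rose and 3 fell (10.5% and 15.8%, against 11.3% and 9.49% of all tested genes), Herpud1 rising (48.8 and 40.1 against 167 and 132) and Pdia6 falling (1500.4 and 1144 against 655 and 592). For these chaperones, 1 rose without P28 replicate 1 and 1 fell without P28 replicate 1. Hspa1a was not called without P7 replicate 2 or either P28 library (adjusted p = 0.296, 0.124 and 0.128). Hspa1b was not called without P7 replicate 2 or either P28 library (adjusted p = 0.261, 0.0986 and 0.114).

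Complement genes, whose products tag microbes and debris for removal, rose in 12 of 17 tested and fell in 0, with a median of 1.88. C3, the central component, read 46.5 and 45.5 at P7 and 355 and 329 at P28 (log2 difference 2.87, SE 0.44, adjusted p = 0.000112). Serping1, the inhibitor of C1, read 2941 and 2959 at P7 and 8156 and 8398 at P28. The terminal component C7 read 65.6 and 63.5 at P7 and 372 and 325 at P28 and the protease C1s1 read 16.3 and 11.3 at P7 and 100.1 and 92.9 at P28 (log2 difference 2.74, SE 0.31, adjusted p = 3.2e-06). C4b rose as well (4.46 and 1.25 against 51.4 and 44.7), but it shares sequence with C4a, and C1ra with C1rb, so their split is uncertain.

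Of 28 chemokine and cytokine genes 18 passed the filter on low values and were tested. Of these 13 rose and 0 fell, with a median of 1.89, and with no filter 15 of 28 rose. Cxcl14 read 5.78 and 2.51 at P7 and 195 and 153 at P28 (log2 difference 5.16, SE 0.47, adjusted p = 1.94e-07), Cxcl2 read 100.3 and 105 at P7 and 861 and 680.3 at P28, Cxcl1 read 36.2 and 39.2 at P7 and 215 and 228 at P28 and Lif read 148 and 201 at P7 and 1546 and 739 at P28. The homing chemokine Ccl19 had 0 reads at P7 (0 and 0 against 7.09 and 4.39), and Il6 rose (12.3 and 23.8 at P7 and 100.1 and 92.9 at P28). Kitl did not pass (53.6 and 48.4 against 64.1 and 49.5). Cxcl1, Cxcl2, Il6 and Lif are also known to be induced by tissue digestion, and the summed immediate early level was higher in both P28 libraries, as given above. The summed level of leukocyte markers, also given above, was higher in both P28 libraries too. The part of digestion or of leukocytes in these rises was not tested.

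Interferon-stimulated genes rose in 17 of 28 tested and fell in 0, with a median of 1.37. The antiviral gene Ifit1 read 0.263 and 0 at P7 and 15.4 and 34.7 at P28, and Ifit3 read 4.99 and 1.25 at P7 and 56.99 and 66.2 at P28 (log2 difference 4.09, SE 0.52, adjusted p = 1.26e-05). Ifi27l2a read 121 and 85.6 at P7 and 1145 and 866 at P28 (log2 difference 3.28, SE 0.28, adjusted p = 7.33e-08), the ubiquitin-like modifier Isg15 read 1.58 and 2.09 at P7 and 23.9 and 22.7 at P28, and the transcription factor Irf7 read 1.05 and 0 at P7 and 10.04 and 8.37 at P28. Ifitm3 also rose (586 and 615 against 1189 and 1072), and Ifitm1 did not pass (1504 and 1476 against 1806 and 1874). For the interferon list, 11 rose without P28 replicate 2.

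The element through which interferon acts was searched for as GAAA, any 2 bases, then GAAA. In RefSeq 14 of the 17 interferon genes that rose were matched, with 16 starts, and 9 starts of 9 genes held the element on either strand in the 250 bases before the start (56.2%), against 2.98% of all 32851 starts. The genes were picked as targets of interferon, so the match describes the list as it was drawn up. The 3 promoters with the smallest p that hold it are shown, with each match in capitals: Ifit3 at chr19:34583279-34583528 and Ifit1 at chr19:34640639-34640888, both on the plus strand, and Isg15 at chr4:156200819-156201068 on the minus strand, where 3 matches overlap.
Ifit3: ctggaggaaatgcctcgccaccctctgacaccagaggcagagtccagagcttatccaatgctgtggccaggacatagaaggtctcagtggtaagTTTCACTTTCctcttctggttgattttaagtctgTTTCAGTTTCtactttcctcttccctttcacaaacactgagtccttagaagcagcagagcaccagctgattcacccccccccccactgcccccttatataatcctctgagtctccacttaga
Ifit1: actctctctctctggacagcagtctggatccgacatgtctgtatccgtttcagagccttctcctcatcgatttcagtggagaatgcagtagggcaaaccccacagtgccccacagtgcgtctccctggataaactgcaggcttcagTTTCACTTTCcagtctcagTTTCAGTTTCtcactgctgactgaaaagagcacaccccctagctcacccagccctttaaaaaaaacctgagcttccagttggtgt
Isg15: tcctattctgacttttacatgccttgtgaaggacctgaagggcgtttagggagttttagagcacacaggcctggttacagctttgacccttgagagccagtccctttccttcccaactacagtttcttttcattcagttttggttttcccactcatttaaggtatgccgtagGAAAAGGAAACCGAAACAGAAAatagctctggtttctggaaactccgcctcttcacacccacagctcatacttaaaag

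Antigen presentation genes of MHC class I rose in 6 of 15 tested, with H2-K1 (5.25 and 4.18 at P7 and 48.1 and 39.9 at P28, log2 difference 2.98, SE 0.36, adjusted p = 7.92e-06) and the immunoproteasome subunit Psmb8 (23.9 and 13.4 at P7 and 161 and 161 at P28) the firmest and H2-D1 not past the threshold (4.99 and 6.68 against 12.4 and 9.17). The interferon element lay in 2 of 6 starts of 5 of these genes (33.3%), those of B2m and H2-T22. The class I genes resemble each other and can share tags. Of 7 class II genes 3 passed the filter on low values and were tested. All 3 rose, but at different levels in the P28 libraries. H2-Eb1 read 13.1 and 6.68 at P7 and 81.8 and 429 at P28 (log2 difference 4.18, SE 0.63, adjusted p = 8.34e-05). Cd74 read 0.525 and 0 at P7 and 6.497 and 23.1 at P28, so among these 4 libraries it reached the filter's 3 value units at P28 only. A gene of this kind is tested because it is high at P28. With no filter 5 of 7 rose and 0 fell. Leukocytes are the main cells with class II, and the leukocyte marker Laptm5 (1.31 and 0 at P7 and 21.3 and 86.5 at P28) was higher in the same library, P28 replicate 2. Its part in the class II rise was not tested.

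Enzymes against oxidants and foreign compounds rose in 13 of 37 tested and fell in 2, with a median of 0.47. Fmo2, the flavin monooxygenase of lung, read 180.4 and 142 at P7 and 2767 and 2171 at P28 (log2 difference 3.93, SE 0.18, adjusted p = 2.21e-11), and Gpx3, the secreted glutathione peroxidase, read 58.6 and 60.5 at P7 and 823 and 795 at P28 (log2 difference 3.74, SE 0.17, adjusted p = 2.21e-11). Sod3, the extracellular superoxide dismutase, read 21.8 and 29.2 at P7 and 346 and 289.9 at P28, and Gstm1 read 7.35 and 6.26 at P7 and 73.5 and 50.2 at P28. Gsta3 was listed at 0 in both P7 libraries (0 and 0 against 59.9 and 45.5). The intracellular enzyme Sod1 did not pass (58.03 and 45.5 against 56.7 and 59.4), nor did Prdx1 (115 and 101 against 109 and 98.1), and Prdx5 fell (68.01 and 57.6 against 30.1 and 21.1). For these enzymes, 1 fell without P7 replicate 1 or P28 replicate 1.

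Glycolysis and hypoxia genes rose in 9 of 23 and fell in 0, led by the glucose transporter Slc2a1 (91.4 and 83.9 at P7 and 281 and 229.7 at P28, log2 difference 1.53, SE 0.18, adjusted p = 5.7e-06) and the hexokinase Hk2 (55.4 and 96.5 at P7 and 280.2 and 228 at P28). Fatty acid and triglyceride genes rose in 6 of 25 and fell in 1, with Lpin1 (3.41 and 1.67 against 20.4 and 15.6), Elovl5 (6.56 and 5.01 against 20.4 and 26.7) and the triglyceride lipase Pnpla2 (145 and 135 against 232 and 271) higher and Hadha, of beta-oxidation, lower (259.7 and 265 against 128 and 158). For fatty acid genes, 3 rose without P28 replicate 2 and 2 fell without P28 replicate 1. Cholesterol synthesis gave 2 rises and 2 falls in 22, shares close to those of all genes, with the epoxidase Sqle lower (33.3 and 31.3 at P7 and 6.201 and 12.4 at P28, log2 difference -1.76, SE 0.31, adjusted p = 0.000368). For cholesterol genes, 1 rose without P7 replicate 1 or P28 replicate 1, 0 rose without P7 replicate 2 or P28 replicate 2 and 1 fell without either P7 library or P28 replicate 1. For glycolysis, 1 fell without P7 replicate 2. Pnpla2 was not called without P28 replicate 2 (adjusted p = 0.056).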

How the data were processed

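Fibroblasts were sorted from mouse lung at P7 and P28, 2 libraries each, and profiled by 3'SAGE-seq. The authors deposited a normalised signal per gene and library. How they scaled it is not stated by labels or headers. Per the submitters' processing notes, tools included Bowtie2 2.2.5 and R 3.4.0, with build mm10. Whole reads were recovered from the steps of the signal to give depth, 2146071 to 3808790 reads. Genes with a value of at least 3 in at least 2 of 11 fibroblast libraries were tested with limma 3.58.1 (mean-variance trend) on log2(value + 1), so fold changes of low genes are understated. All 11 libraries, with 1 mean per stage, gave the spread. Benjamini-Hochberg adjusted p under 0.05 was a call. DESeq2, edgeR, another scaling, pseudocounts, filters and left-out libraries were alternatives. On simulated data 33 of 100 genes changed 2-fold and 76 of 100 changed 4-fold were called, over 11315 genes. Of the 118 simulated calls 9 were unchanged genes. Of 21170 symbols 16619 matched GENCODE M21. Members and lists were chosen with earlier results of these data known. Genes named by rule were the 15 largest rises and falls with a mean of at least 50, up to 4 list members by p in each direction, the sort genes and the 10 most abundant genes. Other list members are given as values. A few genes are not reported here by name.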

Additional observations from a re-analysis of the deposited data

How the results depend on the processing

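The count of genes that differed, 2491 in the analysis reported, was 2460 with edgeR and 2011 with DESeq2 on the recovered reads, 2493 with TMM scaling, 2311 and 2623 with pseudocounts of 0.25 and 5, 1867 with no filter (21170 genes tested), 2510 with the filter on the 4 libraries, 1833 with the 4 libraries alone and 2465 without the P56 library. Of the edgeR calls 2353 were shared with it. Genes lower at P28 went from 1135 to 724 with no filter, 719 with the 4 libraries alone and 550 without P7 replicate 1, so that the share of calls that were higher went from 54.4% to 61.2%, 60.8% and 64.7%. Leaving out each library in turn gave 1557 to 2043 calls, 899 to 1106 higher and 550 to 937 lower, and the lone library left in its group was then assumed to vary like the other stages. 0 calls reversed direction under any of the 14 alternatives. Mcam, not called, was at -0.24 on the log2 scale and went to 0.01 without P7 replicate 1, 0.64 without P28 replicate 1 and -1.12 without P28 replicate 2. Of 454 called genes named or listed, 250 were called under all 14. In further lists, genes past the threshold went from 8 to 5 (elastic fibre, lower), 8 to 4 (TGF-beta and BMP, higher), 8 to 3 (guidance, lower), 4 to 1 (angiogenic, higher) and 7 to 3 (heat shock, higher) with no filter, and the angiogenic list also to 1 with a pseudocount of 0.25. The endothelial marker call was also lost with DESeq2, TMM scaling, a pseudocount of 0.25, the 4 libraries alone and the replicate block. With the 4 libraries alone guidance had 5 and heat shock 4, and with DESeq2 guidance had 5. Lists with few calls also moved by 1 or 2 genes under several of these settings. The cause of these shifts was not tested. The replicate numbers do not pair the libraries: deviations of same-numbered libraries correlated at -0.0377 to 0.0404 over 10 pairs of stages, and the fit with the replicate block gave 2508 calls. Depth limits genes of few reads, since 3 reads are 0.788 to 1.25 value units, and 33 of 100 simulated 2-fold changes were recovered.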
